A study of Mus musculus with 18 samples.

Results

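Antisense long noncoding RNA genes are genes that GENCODE M21 annotates as transcribed from the strand opposite another gene, with no protein product. Those on autosomes with at least 10 counts in at least 2 of the 18 libraries were taken, without Kcnq1ot1 and the Snhg genes, which gave 1224 genes of the 54446 in the count table. The annotation holds 2959 antisense genes, of which 2855 were in the table, 2809 were autosomal and 2806 remained after the named exclusions. Among them 115 had 0 counts in every library. At the edge of the rule, 135 of the genes taken had 10 to 12 counts in their second highest library, and 199 genes with 7 to 9 counts there were left out. Of the 1224 genes, 53 had 10 or more counts in all 18 libraries.

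The libraries hold nuclear RNA, depleted of ribosomal RNA, from C57BL/6 mouse embryonic stem cells grown in serum with LIF, CHIR99021 and PD0325901. Cells of the genotype labelled Ythdc1_Control and cells labelled Ythdc1_cKO (a conditional knockout of Ythdc1) were collected after 0, 3 or 6 h of actinomycin D at 5 µg/ml, added after 48 h of culture, in 6 groups of 2 libraries. Cells labelled Mettl3_Control, Mettl3_KO1 and Mettl3_KO2 form 3 further groups of 2 and carry the time label 0 h with the same agent. YTHDC1 is the nuclear reader protein of N6-methyladenosine (m6A), and METTL3 is the enzyme that writes this mark on RNA. The labels do not say whether replicates came from separate cultures, so p-values reflect only how these libraries vary, which may be technical, and whether KO1 and KO2 are single clones is not given in the sources used here.

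Antisense transcription is widespread in mammalian genomes. Many antisense RNAs begin near the promoter of the gene they oppose, stay in the nucleus and are cleared by the nuclear exosome with its NEXT and PAXT adaptor complexes, and a few, such as Airn at the imprinted Igf2r locus, silence the opposing gene in cis. Actinomycin D blocks transcription, so the level left after some hours reflects how long an RNA made earlier lasts relative to other RNAs.

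Of the 1224 genes, 1188 had a protein-coding partner on the other strand, with 1093 distinct partners and 80 partners shared by several antisense genes. The antisense gene lay wholly inside its partner in 673 cases. In 250 cases the pair overlapped at their starts, with a median of 835 bases between the starts, and in 204 at their ends. A further 33 spanned the partner and 28 lay head to head with it, within 2000 bases and without overlap. Exons of 757 genes overlapped exons of the other strand, while 467 had no such base. The median exon length was 1202.5 bases, 123 genes had 1 exon block, and 1062 carried a provisional name of the Gm or Rik kind.

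The promoter windows of 6 genes that the results turn on are shown, with 250 bases before and 50 bases after the start given by RefSeq (GRCm38.p6). Capitals mark a match on either strand to TATAAA (the core of the TATA box), to GGGCGG (a GC box) or to CCAAT (the CCAAT box), which is a description and not a measured binding site. The motifs share no match in these windows. The windows belong to 2610206C17Rik and A630072M18Rik, both higher in libraries labelled cKO before the drug, 6330410L21Rik and Tug1, both lower there, 2810001G20Rik, which starts 16 bases from Cox10 on the other strand, and Rab26os, which is among the most abundant of these genes. They lie at chr7:84689390-84689689, plus strand, at chr5:20950739-20951038, plus strand, at chr3:129753508-129753807, plus strand, at chr11:64079234-64079533, plus strand, at chr17:24528001-24528300, plus strand, and for Tug1 at chr11:3648765-3649064, minus strand, whose RefSeq start lies 859 bases from the GENCODE start.
2610206C17Rik: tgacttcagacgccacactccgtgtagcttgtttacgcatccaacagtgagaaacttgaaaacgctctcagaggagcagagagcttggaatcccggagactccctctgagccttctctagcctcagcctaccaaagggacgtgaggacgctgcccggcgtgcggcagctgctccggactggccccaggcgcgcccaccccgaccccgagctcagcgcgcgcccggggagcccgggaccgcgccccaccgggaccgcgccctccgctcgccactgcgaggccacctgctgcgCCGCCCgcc
A630072M18Rik: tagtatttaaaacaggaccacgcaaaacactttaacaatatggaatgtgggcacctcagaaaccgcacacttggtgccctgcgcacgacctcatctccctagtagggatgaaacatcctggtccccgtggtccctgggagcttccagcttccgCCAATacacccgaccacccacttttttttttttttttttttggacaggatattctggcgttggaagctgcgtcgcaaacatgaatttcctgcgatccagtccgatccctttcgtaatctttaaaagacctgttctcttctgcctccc
6330410L21Rik: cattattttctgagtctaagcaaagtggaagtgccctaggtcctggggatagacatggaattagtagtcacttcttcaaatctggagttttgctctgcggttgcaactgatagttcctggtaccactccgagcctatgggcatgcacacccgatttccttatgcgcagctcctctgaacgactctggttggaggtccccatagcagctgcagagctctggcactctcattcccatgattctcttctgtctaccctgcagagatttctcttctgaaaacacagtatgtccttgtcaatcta
2810001G20Rik: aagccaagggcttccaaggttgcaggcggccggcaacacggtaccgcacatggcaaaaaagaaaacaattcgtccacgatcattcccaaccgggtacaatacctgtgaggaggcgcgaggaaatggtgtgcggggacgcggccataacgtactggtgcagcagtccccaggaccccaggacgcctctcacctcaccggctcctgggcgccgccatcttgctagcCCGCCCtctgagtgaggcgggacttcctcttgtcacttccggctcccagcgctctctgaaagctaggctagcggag
Rab26os: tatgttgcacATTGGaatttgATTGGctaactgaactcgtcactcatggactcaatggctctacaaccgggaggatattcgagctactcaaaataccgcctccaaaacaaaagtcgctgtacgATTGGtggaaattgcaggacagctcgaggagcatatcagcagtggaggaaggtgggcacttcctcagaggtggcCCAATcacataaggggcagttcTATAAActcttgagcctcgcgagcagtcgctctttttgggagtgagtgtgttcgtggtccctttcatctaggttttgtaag
Tug1: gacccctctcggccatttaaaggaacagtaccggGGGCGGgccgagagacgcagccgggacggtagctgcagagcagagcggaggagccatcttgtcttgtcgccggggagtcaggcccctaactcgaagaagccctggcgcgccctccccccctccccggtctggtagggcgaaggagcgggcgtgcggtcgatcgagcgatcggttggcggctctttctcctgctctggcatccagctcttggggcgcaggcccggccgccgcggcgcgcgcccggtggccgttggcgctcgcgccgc
The Rab26os window held TATAAA and 4 copies of CCAAT in either orientation, while the 2610206C17Rik, 2810001G20Rik and Tug1 windows each held 1 GGGCGG. The 6330410L21Rik window held none of the letters searched. Of 609 windows of 300 bases belonging to 484 of the antisense genes, 7.88% held TATAAA, 30.4% GGGCGG and 31.4% CCAAT, against 13.6%, 35.7% and 37.4% of all 32851 windows.

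The letters GGACT, the most frequent form of the m6A consensus, were counted in the longest GENCODE M21 transcript of each gene. Of the 1224 genes, 71.5% held at least 1 copy, with 1.08 copies per kb, against 93.1% of 14147 tested coding genes, also with 1.08 per kb, whose median transcript was 3381 bases against 1110.5. The windows below show a GGACT in capitals in 5 RNAs whose levels are described next, and whether any of these adenosines is methylated was not measured.
Nespas: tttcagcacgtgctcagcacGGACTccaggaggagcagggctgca
Tug1: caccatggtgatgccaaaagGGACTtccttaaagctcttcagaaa
Lrrc75aos2: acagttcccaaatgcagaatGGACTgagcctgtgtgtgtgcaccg
Gm28940: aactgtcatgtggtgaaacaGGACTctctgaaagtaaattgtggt
4732471J01Rik: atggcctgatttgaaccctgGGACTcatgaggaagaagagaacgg
The Nespas transcript held 10 copies in 2248 bases, 4.45 per kb, the Tug1 transcript 9 in 6719 bases, and 5830418P13Rik 0.

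Gene reads per library ranged from 4950973 to 30989044. The antisense genes took 0.117% of gene reads in both Ythdc1 controls at 0 h, 0.134% and 0.135% in libraries labelled cKO at 0 h, 0.066% to 0.0724% in every library at 3 or 6 h, and 0.255% to 0.296% in the Mettl3 libraries. In the Ythdc1 libraries, reads that fell on no annotated gene feature were 49.7% to 53.6% of uniquely placed reads at 0 h, against 18.05% to 24.5% after the drug. Where counting uses strand, these include reads on the opposite strand of an exon. Reads that overlapped several genes were 2.67% to 3.51% at 0 h, against 5.57% to 10.2% after the drug. Embryonic stem cell markers (10 genes) summed to 2646 to 4196 CPM (counts per 1000000 gene reads, with the total of each library adjusted by edgeR's TMM factors). Ythdc1 had 143 and 120 CPM in libraries labelled cKO at 0 h and 145 and 132 in the control (log2 difference -0.07 ± 0.08, edgeR adjusted p = 0.557). Values after ± are the log2 value divided by the square root of the edgeR F statistic, an approximate standard error (SE) that was not fitted. Mettl3 had 32.6 and 31.3 CPM in KO1 against 36.6 and 31.9 in the control (edgeR adjusted p = 0.316). At 3 h Ythdc1 had 14.5 and 15.3 CPM in libraries labelled cKO against 51.9 and 50.3, and at 6 h 19.2 and 18.7 against 51.3 and 47.2. The Ythdc1 RNA level therefore goes with the cKO label at 3 and 6 h but not at 0 h. Counts over whole genes do not show whether single exons are missing, and they do not measure protein. Whether either factor was absent from the cells cannot be read from these values. In KO2 Mettl3 had 22.7 and 22.1 CPM (adjusted p = 7.45e-10).

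The strand used in counting decides what an antisense count means, and it differed between the experiments. Pdcd2, whose exon bases all lie under exons of Tbp on the other strand, had 97 to 509 counts in the 12 Ythdc1 libraries and 0 in all 6 Mettl3 libraries, while Tbp had 133 to 724 and 1139 to 1865. The antisense gene 4930566F21Rik, also wholly under exons of the other strand, had 1288 counts in all over the Ythdc1 libraries and 0 over the Mettl3 libraries. When strand is ignored, a read that falls on exons of both genes goes to neither, and counts of genes in this position vanish. Over 44 coding genes with at least 95% of their exon bases in this position, reads per 1000000 gene reads were 46.5 to 101 in the Ythdc1 libraries and 2.96 to 3.33 in the Mettl3 libraries.

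Antisense genes inside genes of the other strand showed the converse. Gm31266, which lies inside Jade1 (a scaffold of a histone acetyltransferase complex), with 44.2% of its exon bases under Jade1 exons, had 339 to 571 counts in each Mettl3 library but 1 count in all over the 12 Ythdc1 libraries, where Jade1 had 70428 counts. Gm17232, inside Tdh (threonine dehydrogenase), had 131 to 554 counts in the Mettl3 libraries and 0 to 13 in the Ythdc1 libraries. Over the 766 antisense genes with every exon base in introns of the other strand, reads per 1000000 gene reads were 49.4 to 125 in the Ythdc1 libraries and 630 to 768 in the Mettl3 libraries, while the 205 antisense genes with no base inside a gene of the other strand had 38.4 to 69.8 and 90.6 to 108. The Ythdc1 counts thus have the form of counts made with strand and the Mettl3 counts that of counts made without it, and Mettl3 values below are reads of either strand at the antisense exons. Under such counting, RNA of the antisense gene and unspliced RNA of the gene around it cannot be told apart.

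**Figure D1:**
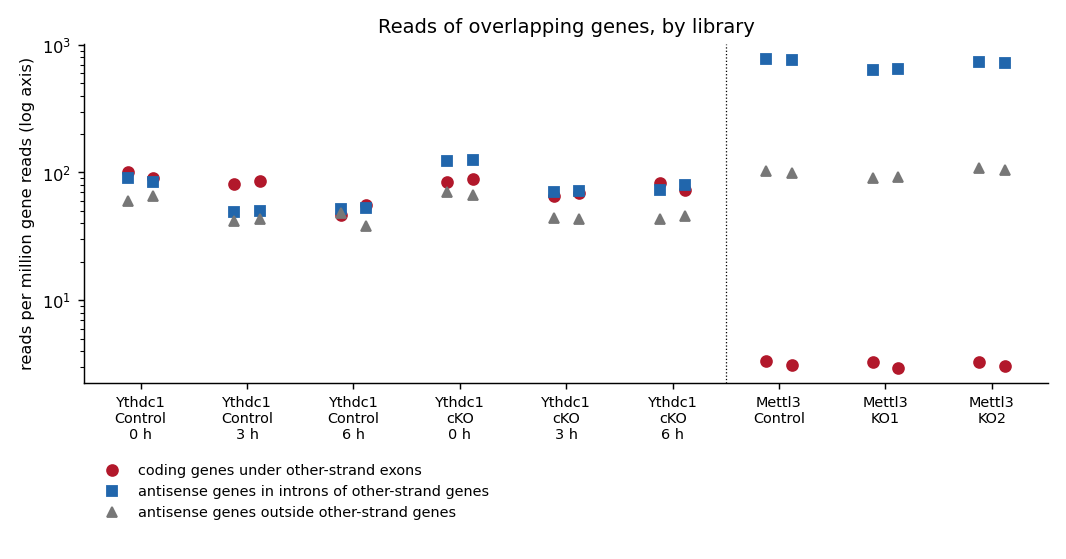
Reads per 1000000 gene reads (log axis) in each of the 18 libraries for 44 coding genes under other-strand exons, 766 antisense genes in introns of other-strand genes and 205 antisense genes outside other-strand genes; each point is 1 library and the dotted line divides the experiments. The red points drop from 46.5 or more in the Ythdc1 libraries to 3.33 or less in the Mettl3 libraries, while the blue points rise from at most 125 to at least 630.

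The rule was met in the Mettl3 libraries alone by 870 genes, in the Ythdc1 libraries alone by 42, in both by 303 and only over both experiments together by 9. After the filter on low counts, 346 of the 1224 entered the Ythdc1 fit and 1131 the Mettl3 fit. Their median mean count was 12.5 in the Ythdc1 fit, against 133 over all 17900 genes tested, and 27.2 against 146 over the 21802 genes of the Mettl3 fit. A gene that entered only through the group where it is high had to differ, so counts over the genes that entered are a description.

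Lrrc75aos2 was the most abundant antisense RNA per length in the Ythdc1 control at 0 h, with 34.1 and 33.7 CPM per kb of exon. Nespas, the imprinted antisense RNA of the Gnas locus, followed with 23.9 and 25.03 CPM per kb, and Rab26os with 27.0 and 18.1. The last 2 did not differ beyond the spread of the Rab26os libraries. Gm43803, inside Lhfp, had 14.7 and 11.96 CPM per kb and Tug1, a widely expressed nuclear noncoding RNA that starts beside Morc2a, 13.8 and 11.96. This order was drawn up after the values were seen, because the order over all 18 libraries that was set for naming genes puts Gm31266, Gm17232, Gm13165 and Gm21844 among the 10 highest from Mettl3 counts, with 0 to 13 counts in any Ythdc1 library.

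Before the drug, antisense RNAs were more often higher than lower in the libraries labelled cKO. Of 346 tested, 42 passed an edgeR adjusted p of 0.05, 38 higher and 4 lower, which is 12.1% against 29.4% of all genes tested (13.5% higher and 15.8% lower). Their median log2 difference was 0.29, against 0.01 over all genes. The DESeq2 Wald test called 19, 17 higher and 2 lower. Split by mean count, 21 of 279 with a mean under 30 counts passed (7.53%, against 8.97% of all such genes), 15 of 53 from 30 to under 100 (28.3% against 21.1%) and 6 of 14 from 100 (42.9% against 42.7%). The median was 0.29, 0.26 and 0.02 in these classes, against 0.22, 0.09 and -0.05 over all genes of each class. Much of the shift under 30 counts is thus shared by all such genes, whose calls were not split into higher and lower. By position, the median was 0.27 inside the coding partner, 0.39 where starts overlap, 0.29 where ends overlap and 0.43 where the partner was spanned. The 16 without a coding partner had 0.25 and the 15 head to head -0.18. The 27 with no exon base inside a gene of the other strand, a set chosen after seeing the data, had -0.14. In these last 2 sets 0 were called, and differences between positions were not tested.

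The direction of this count rests on the scaling. Scaled to ERCC spike-in reads, 20 were higher and 21 lower (11.8%), against 46.7% of all genes (790 higher and 7571 lower of 17900). The median of the antisense genes was then -0.08 and that of all genes -0.35, so the antisense median stayed above that of all genes. With any 1 of the 4 libraries at 0 h left out, 24 to 26 passed, among them 21 to 25 higher: 24 without control replicate 1, 25 without control replicate 2, 25 without cKO replicate 1 and 26 without cKO replicate 2. Embryonic stem cell markers summed to 2646 and 2687 CPM in the libraries labelled cKO against 3063 and 3101 in the control, and 10 fibroblast feeder markers to 39.9 and 41.3 against 23.4 and 26.1. The part of these in the result was not tested, and in bulk RNA fewer cells of a type and less RNA per cell cannot be told apart.

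2610206C17Rik, whose start overlaps that of Zfand6 (an AN1-type zinc finger protein) on chromosome 7, had 12.4 and 10.7 CPM in the libraries labelled cKO at 0 h and 3.58 and 4.05 in the control. The groups were well apart (log2 difference 1.59 ± 0.27 approximate SE, edgeR adjusted p = 1.27e-05). Zfand6 itself had a log2 difference of -0.12 ± 0.09 with adjusted p = 0.365. Gm28940, inside Rhbdd1 (a rhomboid protease), had 9.66 and 10.8 CPM against 3.79 and 3.51 (1.49 ± 0.27, adjusted p = 3.66e-05). 5830418P13Rik, which overlaps the end of the lens filament gene Bfsp2, had 11.2 and 13.1 CPM against 3.90 and 3.82 (1.65 ± 0.22, adjusted p = 2.25e-07). The groups did not overlap for any of these 3 RNAs.

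Gm20234, which overlaps the end of Slfn2, was higher in the same libraries, with 6.40 and 9.38 CPM against 2.49 and 2.21 (1.75 ± 0.32, adjusted p = 4.67e-05), and Slfn2 had a log2 difference of 2.52 ± 0.46 (adjusted p = 3.90e-05). Gm10244, which starts beside Mkrn1, had 2.93 and 3.13 CPM against 1.73 and 0.916. Its difference of 1.25 ± 0.37 (adjusted p = 0.00812) lost its call without control replicate 2, where the estimate was 0.79.

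The lower RNAs were 6330410L21Rik, Tug1, Gm44949 and Zim3, the last 2 named after their values were seen. 6330410L21Rik starts beside Egf, the gene of epidermal growth factor, on chromosome 3 and had 4.99 and 4.92 CPM in libraries labelled cKO against 13.7 and 12.1 (-1.37 ± 0.22, adjusted p = 5.06e-06). This was a 2.58-fold difference, and Egf had a log2 difference of 0.23 ± 0.24 (adjusted p = 0.526). Tug1 had 108 and 93.2 CPM against 135 and 116 (-0.31 ± 0.10, adjusted p = 0.0175), a difference of 1.24-fold that lost its call without control replicate 1 (-0.22) or without cKO replicate 2 (-0.22).

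After actinomycin D, antisense RNAs fell more often than they rose. In the control, 130 of 346 passed at 3 h, 15 higher and 115 lower, which is 37.6% against 56.5% of all genes (29.3% higher and 27.1% lower). At 6 h 143 passed, 44 higher and 99 lower, which is 41.3% against 64.8% (33.1% higher and 31.7% lower). The median log2 change was -0.57 at 3 h and -0.44 at 6 h, against 0.07 and 0.03 over all genes, and the fall is therefore relative to the typical nuclear RNA. Under 30 counts the medians were -0.56 and -0.43, against -0.11 and -0.15 over all such genes. By mean count, 104 of 279 with a mean under 30 counts passed at 6 h (37.3%, against 38.8% of such genes), 28 of 53 from 30 to under 100 (52.8% against 61.8%) and 11 of 14 from 100 (78.6% against 79.5%). Among the 67 with a mean of at least 30 counts, 34 were lower and 3 higher at 3 h, and 31 lower and 8 higher at 6 h.

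In the libraries labelled cKO, 153 passed at 3 h, 14 higher and 139 lower (44.2%, against 59.4% of all genes, 29.6% higher and 29.8% lower). At 6 h 141 passed, 21 higher and 120 lower (40.8%, against 60.9%, 29.6% higher and 31.3% lower). The medians were -0.89 and -0.66, and under 30 counts -0.91 and -0.56, against -0.34 and -0.34 over all such genes. The 6 h count was 75, with 65 lower, without cKO 6 h replicate 2, the deeper library of its pair.

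Marker levels moved over the same hours. From 0 to 6 h in the control, feeder markers went from 23.4 and 26.1 to between 64.9 and 67.9 CPM, 10 neuroectoderm markers from between 73.5 and 79.7 to between 146 and 156, and embryonic stem cell markers from between 3063 and 3101 to between 4000 and 4041. In libraries labelled cKO feeder markers went from between 39.9 and 41.3 to between 60.3 and 64.5, neuroectoderm markers from between 58.3 and 64.1 to between 74.0 and 76.6, and stem cell markers from between 2646 and 2687 to between 3158 and 3210 CPM. The feeder genes Lum and Dcn were at 0 in both control 6 h libraries, and the part of these markers in the result was not tested.

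Spike-in scaling kept the direction of the counts at 6 h and turned it in 1 comparison. With it, 10 were higher and 199 lower in the control at 6 h (60.4%), against 70.4% of all genes (1312 higher and 11284 lower). Libraries labelled cKO had 3 higher and 221 lower after the same time (64.7%), against 71.7% (587 higher and 12249 lower). The medians were -1.36 and -1.62, against -0.88 and -0.96 over all genes. In the cKO comparison at 3 h, 166 were higher and 16 lower (52.6%), against 86.4% of all genes (14992 higher and 482 lower). The antisense median there was 0.94, below the 1.86 of all genes. The spike-in reads of the cKO 3 h libraries, 3932 and 5225, stand below those of every other library.

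**Figure D2:**
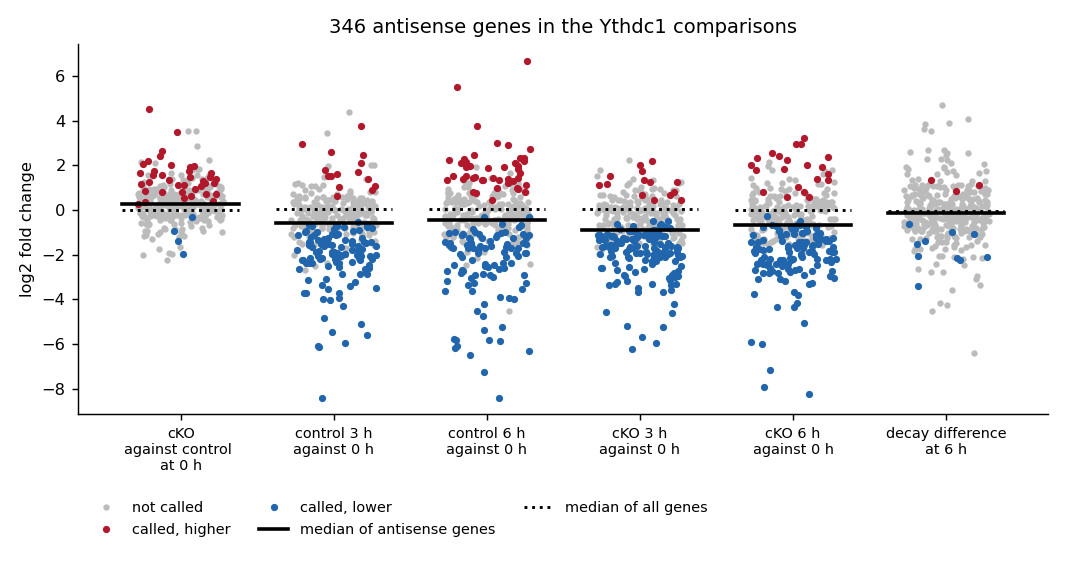
Log2 fold changes of the 346 tested antisense genes in 6 comparisons of the Ythdc1 libraries, 1 point per gene, with calls at an edgeR adjusted p below 0.05 in colour, the median of the antisense genes as a solid bar and that of all genes as a dotted bar. After the drug the solid bar lies between -0.44 and -0.89 and most coloured points are lower, while for the decay difference 13 points are coloured.

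Lrrc75aos2 showed the largest fall among the named antisense RNAs. It lies at chr11:62605766-62607748 on the plus strand, inside the leucine-rich repeat gene Lrrc75a, with 2 exon blocks of which 7.01% lies under exons of the other strand. The control had 41.8 and 41.3 CPM before the drug, 0.441 and 0.852 CPM after 3 h and 1.36 and 0.900 CPM after 6 h. In libraries labelled cKO it went from 42.3 and 46.2 CPM to 0.975 and 0.774, then to 0.815 and 0.633 CPM. The low level was reached by 3 h in both genotypes, where 6 to 15 counts were left of 386 to 541. The log2 change at 6 h was -5.22 ± 0.21 in the control (adjusted p = 4.07e-22) and -6.02 ± 0.23 in the libraries labelled cKO (adjusted p = 2.10e-22), and the difference between them was -0.79 ± 0.48 (adjusted p = 0.271). With 4 to 12 counts left at 6 h, the ± values of the separate changes are likely too small. Lrrc75a did not fall, with a change of 0.72 ± 0.26 in the control (adjusted p = 0.0147).

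Nespas fell to a lesser extent than Lrrc75aos2. It lies at chr2:174281237-174295436 on the minus strand and had 75.2 and 78.7 CPM in the control before the drug, 16.4 and 22.1 CPM after 3 h and 20.6 and 20.6 CPM after 6 h, and the libraries labelled cKO had levels near these (65.7 and 66.5, then 18.5 and 18.5, then 17.1 and 18.6 CPM). Its change of -1.90 ± 0.11 (adjusted p = 4.66e-18) came within the first 3 h, and the level at 6 h lay within the spread of that at 3 h. Gnas, which codes for the stimulatory G protein alpha subunit, had a change of 1.40 ± 0.09 (adjusted p = 9.61e-17) in the same libraries.

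Gm28940, Gm43803, Gm16299 and Gt(ROSA)26Sor also fell in the control by 6 h. Gm28940 had 0.339 and 0.540 CPM at 6 h (-2.99 ± 0.45, adjusted p = 3.80e-07) and Gm43803 fell from 11.3 and 9.16 to 1.58 and 1.17 CPM (-2.89 ± 0.32, adjusted p = 3.99e-10). Gm16299, inside the splicing regulator gene Rbm20, fell from 4.23 and 4.89 to 0.339 and 0.990 CPM (-2.70 ± 0.40, adjusted p = 2.35e-07). Gt(ROSA)26Sor, the noncoding RNA of the Rosa26 locus widely used for transgenes, fell from 9.86 and 9.47 to 1.92 and 2.61 CPM (-2.07 ± 0.27, adjusted p = 1.38e-08).

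Named RNAs that were higher relative to others at 6 h lost this call when scaled to spike-ins. 2810001G20Rik, head to head with Cox10 (an enzyme of heme A synthesis), went from 2.49 and 2.14 CPM to 6.44 and 5.31 in the control, a change of 1.34 ± 0.27 (adjusted p = 4.36e-05) that was 0.43 and not called under spike-in scaling. Gm10244 had a change of 1.13 ± 0.37, Tmem147os of 0.99 ± 0.29, Gm13563 of 0.96 ± 0.38 and 1500015A07Rik of 0.82 ± 0.31, and under spike-in scaling none was called, with 0.22, 0.08, 0.04 and -0.10. Gm10244 also lost its call without control 0 h replicate 2 (0.67) or control 6 h replicate 2 (0.76). Gm13563 lost it without control 0 h replicate 1 (0.68) or control 6 h replicate 2 (0.83), and 1500015A07Rik without either control 0 h library (0.86 and 0.73) or control 6 h replicate 2 (0.83).

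**Figure D3:**
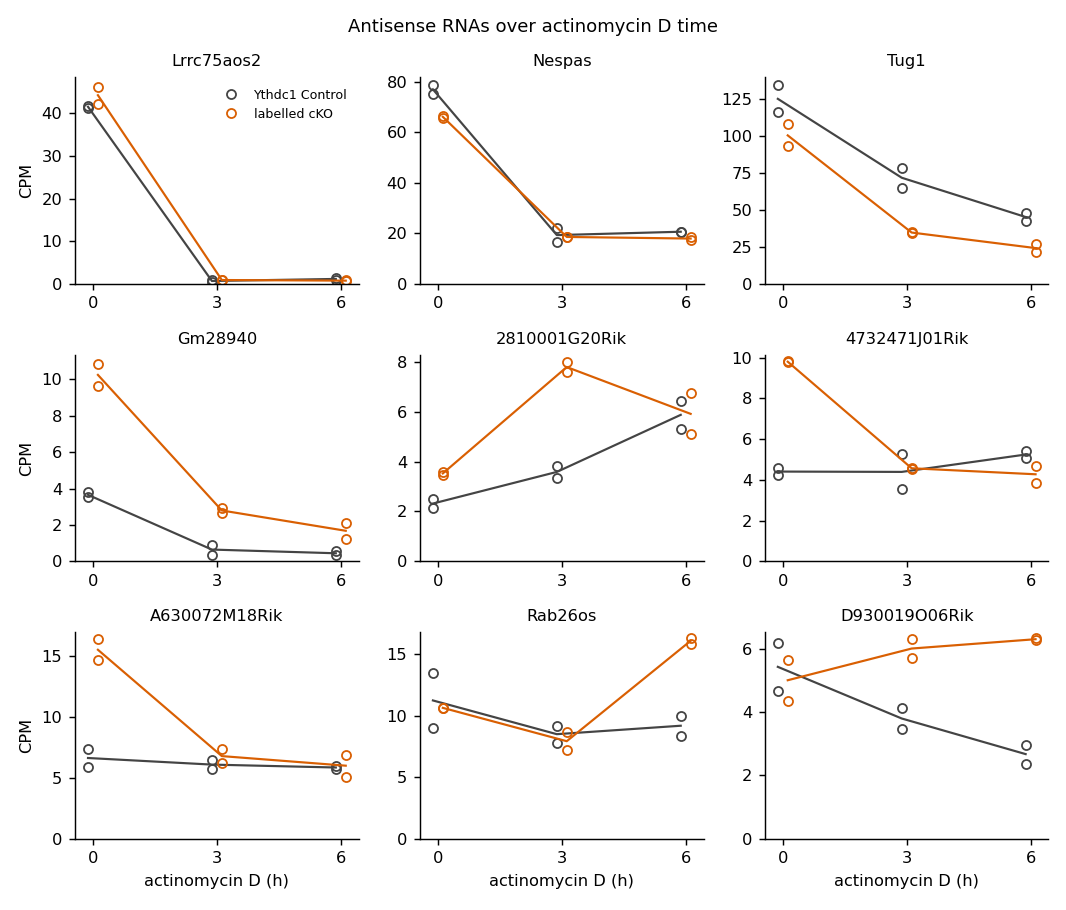
CPM of 9 antisense RNAs at 0, 3 and 6 h of actinomycin D in the Ythdc1 control (grey) and in libraries labelled cKO (orange), with 1 circle per library and lines through the means of 2. Lrrc75aos2 drops from above 40 to below 1.4 CPM in both, while 4732471J01Rik and A630072M18Rik start higher in the libraries labelled cKO and reach the control level by 3 h.

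The change over 6 h differed between the genotypes for few antisense RNAs. In the test of the difference itself (an interaction term), 13 of 346 passed, 3 higher and 10 lower, which is 3.76% against 19.1% of all genes (9.77% higher and 9.35% lower). The median difference was -0.15, against -0.03 over all genes, but under 30 counts it was -0.12, against -0.22 over all such genes. The difference takes in the libraries labelled cKO at 0 h, where Ythdc1 RNA was not called different from the control, and those at 6 h, where its RNA level was below the control in both. By mean count, 5 of 279 under 30 counts passed (1.79%, against 3.02% of such genes), 6 of 53 from 30 to under 100 (11.3% against 9.46%) and 2 of 14 from 100 (14.3% against 30.6%). The count was 8 without control 0 h replicate 2 and 7 without cKO 6 h replicate 2, and the DESeq2 Wald test called 6, 3 higher and 3 lower.

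4732471J01Rik, a gene of 15 exon blocks that spans Ceacam2 on chromosome 7, had 9.77 and 9.83 CPM in libraries labelled cKO before the drug, then 4.59 and 4.54 CPM after 3 h, then 4.69 and 3.85 CPM after 6 h. The control had 4.23 and 4.58, 3.53 and 5.25, then 5.08 and 5.40 CPM. The RNA was higher before the drug (1.15 ± 0.23, adjusted p = 0.000172), and the difference of its changes over 6 h was -1.50 ± 0.35 (adjusted p = 0.00151). A630072M18Rik moved likewise, from 16.4 and 14.6 CPM at 0 h to 5.10 and 6.90 at 6 h in libraries labelled cKO, against 5.85 and 7.41, then 5.76 and 5.94 in the control. Its difference of changes was -1.09 ± 0.29 (adjusted p = 0.00651), with levels that overlap between the genotypes from 3 h on. Of its exon bases 95.05% lie under exons of Rsbn1l, which starts at its other end and had a difference of 0.05 ± 0.14 (adjusted p = 0.858).

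5830418P13Rik had a difference of changes of -0.99 ± 0.33 (adjusted p = 0.0287), D130020L05Rik, which starts beside Ppp4r3a (a regulatory subunit of protein phosphatase 4), of -1.37 ± 0.47 (adjusted p = 0.0351), and Tug1 of -0.64 ± 0.16 (adjusted p = 0.00488). Tug1 fell from 108 and 93.2 to 26.9 and 21.5 CPM in libraries labelled cKO and from 135 and 116 to 48.2 and 42.3 CPM in the control. These calls were less firm. The call of Tug1 was lost without cKO 6 h replicate 2 (-0.43). That of 5830418P13Rik was lost without either control 0 h library, control 6 h replicate 1, cKO 0 h replicate 2 or either cKO 6 h library (-1.11 to -0.77). That of D130020L05Rik was lost without control 0 h replicate 2, control 6 h replicate 2, cKO 0 h replicate 2 or either cKO 6 h library (-1.67 to -1.16).

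D930019O06Rik, Lrp8os2 and Rab26os differed the other way. D930019O06Rik, which starts beside Creg2, had 4.66 and 6.19 CPM in the control at 0 h and 2.37 and 2.97 at 6 h, but 5.64 and 4.36, then 6.32 and 6.27 in libraries labelled cKO (difference 1.35 ± 0.37, adjusted p = 0.00723). Lrp8os2, inside the reelin receptor gene Lrp8, had 6.19 and 6.14, then 9.38 and 11.3 CPM in libraries labelled cKO and 5.96 and 6.03, then 4.29 and 5.31 in the control (1.10 ± 0.30, adjusted p = 0.00751). Rab26os is a 497-base gene of 1 exon at chr17:24528248-24528744 on the plus strand, in an intron of Rab26, a small GTPase of vesicle traffic. It had 16.3 and 15.8 CPM at 6 h in libraries labelled cKO against 8.36 and 9.99 in the control (0.84 ± 0.26, adjusted p = 0.0196), while Rab26 had a difference of -0.86 ± 0.28 (adjusted p = 0.0246). The call of D930019O06Rik was lost without control 0 h replicate 2 (1.13), that of Lrp8os2 without cKO 6 h replicate 2 (0.91), and that of Rab26os without control 0 h replicate 1 (0.57), control 6 h replicate 1 (0.73) or cKO 6 h replicate 2 (0.87).

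In the strand-resolved Ythdc1 libraries, the changes of antisense RNAs and their coding partners showed little correlation. Over 300 pairs, the Pearson correlation of their log2 changes was 0.10 in the control at 6 h (Spearman 0.07), 0.06 at 3 h, 0.15 for libraries labelled cKO at 0 h and 0.03 for the decay difference. These are correlations across pairs, which share libraries and are not replicates. The antisense genes of this fit had a median mean count of 12.5, and noise at such counts lowers a correlation. A relation hidden by that noise cannot be told from none. At 6 h in the control both genes of a pair were called in 91 pairs, 50 in the same direction and 41 in opposite directions. The share of pairs with the same sign was 47.3% in the control at 6 h and 56.0% for cKO against control at 0 h.

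By position, the 105 pairs that overlap at their starts had a correlation of 0.14 in the control at 6 h, the 105 with the antisense gene inside its partner 0.08, the 64 that overlap at their ends 0.10 and the 15 head to head 0.54. Of the head to head pairs, 3 had both genes called at 6 h, 2 of them in the same direction. Antisense genes with no exon base under an exon of the other strand had a median change of -1.01 at 6 h in the control (29 lower and 6 higher of 81 tested). The 27 with no base inside any gene of the other strand had -1.05 (9 lower and 3 higher). The shares called were 43.2% and 44.4%, against 64.8% of all genes. In libraries labelled cKO the medians of these sets at 6 h were -1.05 and -0.44, with 43.2% and 33.3% called, against 60.9% of all genes.

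In the Mettl3 libraries, counted without strand, the loci of 279 of 1131 antisense genes passed in KO1, 90 higher and 189 lower, which is 24.7% against 46.1% of all genes (23.9% higher and 22.2% lower). In KO2 320 passed, 154 higher and 166 lower, which is 28.3% against 50.8% (24.4% higher and 26.4% lower). The medians were -0.22 in KO1 and -0.02 in KO2, against -0.01 and -0.03 over all genes. Under 30 counts the KO1 median was -0.25, against -0.20 over all such genes, and from 30 to under 100 counts -0.23 against -0.14. The DESeq2 Wald test called 147 in KO1, 51 higher and 96 lower, and 190 in KO2, 104 higher and 86 lower. Both lines were compared with the same 2 controls. In KO1 103 of 608 with a mean under 30 counts passed (16.9%, against 16.8% of such genes), 101 of 357 from 30 to under 100 (28.3% against 34.0%) and 75 of 166 from 100 (45.2% against 63.9%). In KO2 113 (18.6% against 23.8%), 117 (32.8% against 40.6%) and 90 (54.2% against 67.0%) of these passed. Scaled to spike-ins, 133 were higher and 125 lower in KO1 and 419 higher and 47 lower in KO2, where the median of all genes moved to 0.17 and 0.53. The feeder markers summed to 258 and 279 CPM in the control, 264 and 276 in KO1 and 674 and 676 in KO2. Embryonic stem cell markers summed to 2917 and 2954 CPM in the control, 4184 and 4196 in KO1 and 2766 and 2806 in KO2, and the part of either list in these values was not tested.

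Reads at antisense exons there moved with the coding partner. Over 1064 pairs the Pearson correlation of log2 changes was 0.50 in KO1 (Spearman 0.44) and 0.57 in KO2 (Spearman 0.55). In KO1 both genes were called in 193 pairs, 161 of them in the same direction, and in KO2 in 242 pairs, 212 of them in the same direction. The 320 pairs with antisense exons wholly in introns of the other strand had correlations of 0.60 and 0.61, while the 24 head to head pairs, which share no base, had 0.22 and -0.03. The 320 intronic pairs had both genes called in 68 pairs in KO1, 61 in the same direction.

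**Figure D4:**
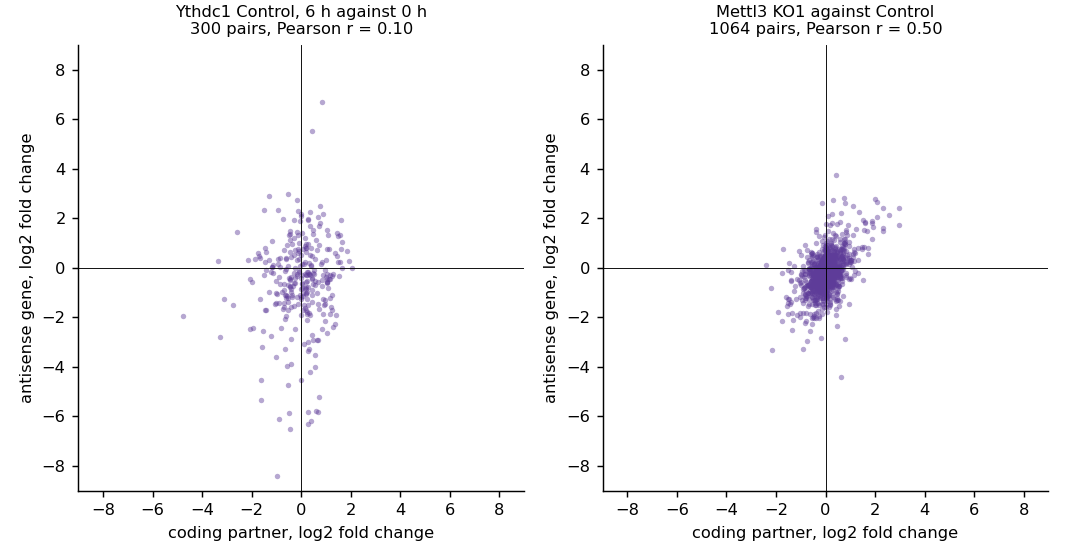
Log2 fold change of each antisense gene (vertical) against that of its coding partner (horizontal), 1 point per pair, for the Ythdc1 control at 6 h against 0 h (300 pairs, counted with strand) and Mettl3 KO1 against control (1064 pairs, counted without strand). The left cloud shows little slope (Pearson r 0.10) and a tail of falling antisense RNAs, and the right cloud slopes upward (0.50). The panels differ in comparison, in pairs and in depth (median mean count 12.5 and 27.2) as well as in strand, and the part of each was not tested.

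Myadml2os, which overlaps the end of Notum (an enzyme that inactivates Wnt proteins), had 0.239 and 0.681 CPM in the Mettl3 control, 2.41 and 2.60 in KO1 and 2.63 and 1.84 in KO2. Its changes of 2.40 ± 0.38 (adjusted p = 1.01e-07) and 2.24 ± 0.39 (adjusted p = 7.68e-07) stood beside 2.32 ± 0.11 and 2.40 ± 0.11 for Notum. In the 12 Ythdc1 libraries Myadml2os had 0 or 1 counts, while Notum had 703 to 3073. 9230105E05Rik, inside Hmga2 (a chromatin-binding protein of the AT-hook kind), had 1.34 and 0.979 CPM in the control, 1.11 and 0.825 in KO1 and 5.503 and 5.15 in KO2. Its change in KO2 was 2.21 ± 0.28 (adjusted p = 1.12e-10) and that of Hmga2 2.58 ± 0.07 (adjusted p = 8.98e-49).

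Gm17232 rose with Tdh in both lines, from 6.25 and 5.83 CPM to 18.05 and 15.3 in KO1 (1.47 ± 0.13, adjusted p = 1.79e-16) and 10.9 and 9.28 in KO2 (0.74 ± 0.14, adjusted p = 5.61e-06). Tdh changed by 1.67 ± 0.04 and 0.87 ± 0.04. Gm36099, inside the protease inhibitor gene Serpinb9b, had 0.191 and 0.255 CPM in the control, 0.945 and 1.95 in KO1 and 2.30 and 2.42 in KO2, with 0 counts in every Ythdc1 library. Its changes were 2.63 ± 0.49 (adjusted p = 4.90e-06) and 3.36 ± 0.46 (adjusted p = 2.21e-09), against 0.78 ± 0.21 and 1.52 ± 0.20 for Serpinb9b. Gm31266 did not follow Jade1 in KO1, with -0.14 ± 0.10 (adjusted p = 0.253) against 0.46 ± 0.03.

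Among loci that were lower, Vax2os, which starts beside the eye homeobox gene Vax2, had 3.20 and 2.51 CPM in the control, 1.63 and 1.61 in KO1 and 0.287 and 0.538 in KO2. Its change in KO2 was -2.79 ± 0.39 (adjusted p = 2.23e-09), beside -3.37 ± 0.51 for Vax2. 4930517O19Rik, inside the transcription repressor gene Klf12, had 3.10 and 3.53 CPM in the control, 2.57 and 3.52 in KO1 and 0.534 and 0.403 in KO2 (-2.81 ± 0.35, adjusted p = 5.51e-11), and Klf12 changed by -1.66 ± 0.14. Gm15351, inside the guanine nucleotide exchange factor gene Mcf2l, had -2.39 ± 0.37 (adjusted p = 5.59e-08) in KO2 against -2.20 ± 0.10 for Mcf2l. The order of the 3 groups was the same for antisense locus and partner at Gm15351 and Mcf2l, with KO2 lowest in every library.

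Further loci named by the size of their change followed their partners to different degrees. Gm15582, inside the phosphatase gene Lhpp, had 2.15 ± 0.39 in KO1 (adjusted p = 2.88e-06) and 1.59 ± 0.42 in KO2 (adjusted p = 0.000812), beside 2.55 ± 0.18 and 1.31 ± 0.20 for Lhpp. 4930533K18Rik, which overlaps the end of the RNA-binding protein gene Bicc1, had 2.23 ± 0.43 and 3.08 ± 0.41 (adjusted p = 1.06e-05 and 6.12e-10), beside 0.64 ± 0.18 and 0.95 ± 0.18. Gm2245, inside Fyb, was higher in KO1 (2.27 ± 0.32, adjusted p = 6.90e-09), where Fyb had 1.34 ± 0.64 (adjusted p = 0.0802). Gm13536, which has no coding partner, was lower in both (-1.48 ± 0.34 and -1.85 ± 0.36, adjusted p = 0.000185 and 1.13e-05).

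5830418P13Rik and Gm4419 were lower in both lines, and their partners were not called lower in KO1. 5830418P13Rik had 4.58 and 5.53 CPM in the control, 1.04 and 1.09 in KO1 and 2.505 and 2.24 in KO2, with changes of -2.25 ± 0.26 (adjusted p = 1.42e-11) and -1.09 ± 0.24 (adjusted p = 7.28e-05). Bfsp2 had -0.54 ± 0.57 (adjusted p = 0.457) in KO1. Gm4419, which starts beside the 14-3-3 protein gene Ywhaq, had 3.82 and 2.60 CPM in the control, 0.652 and 1.09 in KO1 and 0.944 and 0.896 in KO2 (-1.91 ± 0.33, adjusted p = 1.17e-06, and -1.79 ± 0.34, adjusted p = 4.50e-06). Ywhaq was higher in KO1 by 0.41 ± 0.04 (adjusted p = 8.91e-13). In KO2 Ywhaq had 95.8 and 97.6 CPM against 103 and 106 in the control, so there it stood lower, as Gm4419 did. Bfsp2 had 0.780 and 0.762 CPM in KO2 against 0.716 and 0.511.

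**Figure D5:**
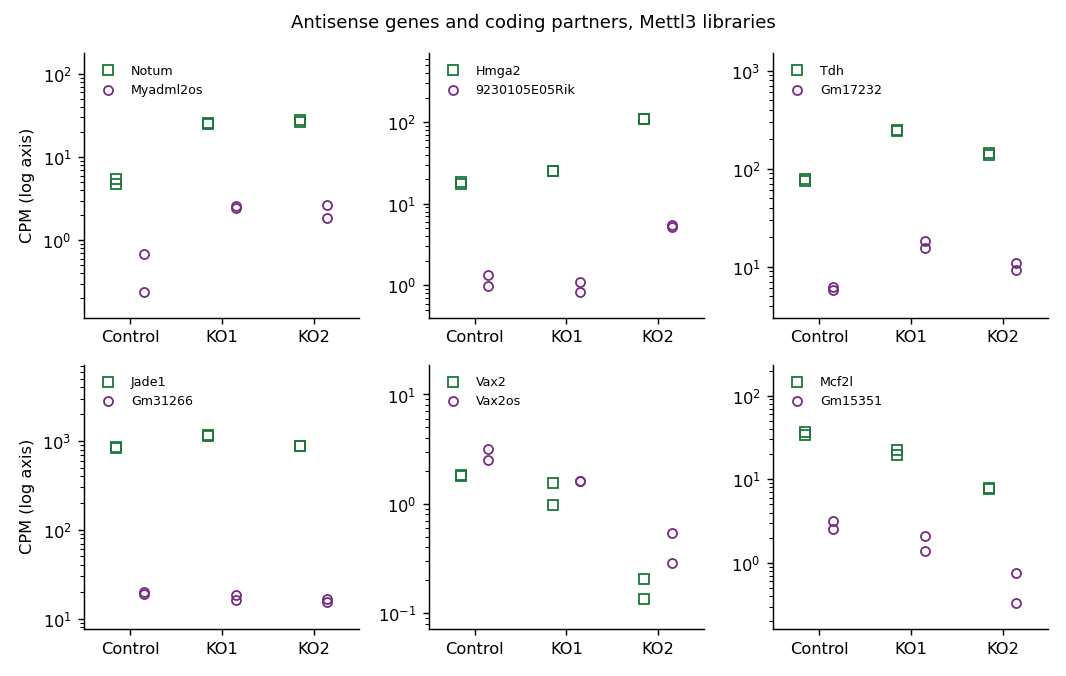
CPM (log axis) of 6 antisense genes (purple circles) and their coding partners (green squares) in the Mettl3 control, KO1 and KO2, with 1 symbol per library, counted without strand. Notum and Myadml2os are higher in both lines, Hmga2 and 9230105E05Rik in KO2, and Mcf2l and Gm15351 are lowest in KO2.

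Among antisense RNAs with a known role, Nespas had 82.0 and 82.0 CPM in the Mettl3 control, 62.4 and 66.5 in KO1 and 96.9 and 109 in KO2. It was lower in KO1 (-0.35 ± 0.05, adjusted p = 4.44e-08) and higher in KO2 (0.33 ± 0.05, adjusted p = 1.08e-07), and the lines differed by -0.68 ± 0.05 (adjusted p = 2.37e-19). Airn, the imprinted antisense RNA at Igf2r, had 1.10 and 0.851 CPM in the control, 0.749 and 1.04 in KO1 and 4.43 and 3.94 in KO2. It was higher in KO2 by 2.11 ± 0.30 (adjusted p = 8.34e-09) and not called in KO1 (-0.14 ± 0.37, adjusted p = 0.793), with Igf2r changed by 0.39 ± 0.03 and -0.17 ± 0.03. Only the annotated exons of Airn enter these counts, and 26.0% of their bases lie inside Igf2r. Of the Nespas exon bases, 54.3% lie inside genes of the other strand and 38.5% under their exons. Reads of either strand can therefore be part of both values.

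Of the listed antisense RNAs with a known role, 8 met the rule. Dnm3os, a host of microRNAs inside Dnm3, was higher in both lines (1.57 ± 0.36, adjusted p = 0.000184, and 2.08 ± 0.35, adjusted p = 4.94e-07). Hoxd3os1, of the HoxD cluster, was lower in KO1 (-1.87 ± 0.36, adjusted p = 9.38e-06) and not called in KO2 (-0.48 ± 0.32, adjusted p = 0.215). Evx1os, which starts beside the homeobox gene Evx1, was lower in KO2 (-2.00 ± 0.56, adjusted p = 0.00179), from 1 and 10 counts against 16 and 27 in the control. In KO1 Evx1os was not called (0.74 ± 0.41, adjusted p = 0.138). Dlx1as had 0.03 ± 0.44 and 0.25 ± 0.44 (adjusted p = 0.958 and 0.664) and Hotairm1 -0.73 ± 0.54 and -1.30 ± 0.58 (adjusted p = 0.279 and 0.0558). In the Ythdc1 libraries Dnm3os, Hoxd3os1 and Dlx1as had too few counts to be tested, and Airn, with 4 to 37 counts, was not called between the genotypes at 0 h (-0.43 ± 0.42, adjusted p = 0.484).

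Genes of the machinery that clears antisense RNA were listed in groups, and counts of those called stand beside the share of all genes called. Of 53 tested, 1 was higher and 10 lower in libraries labelled cKO at 0 h, where 29.4% of all genes were called: 1 Integrator subunit (Integrator ends transcription of many noncoding RNAs) was higher and 3 of 15 were lower, as were 2 of 13 exosome genes, 1 of 5 PAXT genes and 4 of 12 genes of early termination. Scaled to spike-ins, 51 of the 53 were lower. Under that scaling 46.7% of all genes were called, 7571 of 17900 lower, with a median of -0.35. Over 6 h in the control 18 of the 53 were higher and 23 lower (64.8% of all genes). Pcf11, a termination factor, changed by -1.55 ± 0.07 (adjusted p = 1.84e-20) and Srrt, which links the cap-binding complex to RNA decay, by 1.43 ± 0.05 (adjusted p = 1.47e-23). In KO1 27 of the 53 were higher and 8 lower (46.1% of all genes), and in KO2 13 were higher and 26 lower (50.8%). Of 10 further genes that write, read or erase m6A, without Mettl3 and Ythdc1, 4 were higher and 1 lower in libraries labelled cKO at 0 h, 4 and 1 in KO1, and 2 and 5 in KO2.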

How the data were processed

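Nuclear RNA was depleted of ribosomal RNA, spiked with ERCC RNAs and made into SMARTer stranded libraries, per the labels' protocols. The deposited values are raw counts of reads per gene. Per the submitters' processing notes, the tools were HTSeq, HISAT2 2.1.0, Trimmomatic 0.38 and CASAVA, and the build was mm10. Their options, and the gene models used, are not given in the sources examined. The strand setting is not stated either and was read from the counts. Of 54446 gene identifiers, 54409 were found in GENCODE M21 without their version, which gave biotype, position and exons.

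Counts were fitted with edgeR 4.0.16 (R 4.3.3, quasi-likelihood F test, TMM scaling, filterByExpr, 1 coefficient per group), in 1 fit of 12 Ythdc1 libraries and 1 of 6 Mettl3 libraries. Benjamini-Hochberg adjustment ran over each whole fit, and a gene was called where its adjusted p was below 0.05. A decay difference is the 6 h change in cKO minus that in control. Spike-ins and the 5 summary lines stayed out of library totals. The fit was tested on simulated counts. Alternatives were other scalings (DESeq2 size factors, library size, spike-ins), other filters, the DESeq2 1.42.0 Wald test, a replicate block, 1 fit of 18 libraries and each library left out in turn.

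Named genes are the 5 highest and 5 lowest called with a mean of at least 30 counts and, except for the decay difference, no overlap of groups, the 10 highest by CPM per kb, and a list of known antisense RNAs. The partner is the coding gene of the other strand with the longest overlap, or else the nearest start within 2000 bases. The genes, lists and tests were chosen with earlier results of these data known. Sequences come from RefSeq promoter windows (GRCm38.p6), where 484 of 1224 genes matched, and from GENCODE M21 transcripts. Endoderm markers summed to 7.57 to 19.7 CPM and neuroectoderm markers to 58.3 to 156 CPM over the 18 libraries.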

Additional observations from a re-analysis of the deposited data

Results flagged for a closer look

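For 8 antisense RNAs the change over 6 h of actinomycin D differed between the libraries labelled cKO and the control in a test of the difference itself. The difference of log2 changes was -1.50 for 4732471J01Rik, -1.37 for D130020L05Rik, -1.09 for A630072M18Rik, -0.99 for 5830418P13Rik and -0.64 for Tug1, so that the change was more negative in libraries labelled cKO than in the control. It was 1.35 for D930019O06Rik, 1.10 for Lrp8os2 and 0.84 for Rab26os. This difference subtracts libraries labelled cKO at 0 h from those at 6 h. Ythdc1 RNA, counted over the whole gene, had 143 and 120 CPM against 145 and 132 in the control at 0 h. At 6 h it had 19.2 and 18.7 against 51.3 and 47.2. Before the drug 4732471J01Rik, A630072M18Rik and 5830418P13Rik were already higher in libraries labelled cKO. The log2 change of reads at the Nespas exons, counted without strand, differed between the Mettl3 lines, with KO1 minus KO2 at -0.68 in a test of that difference.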

How the results depend on the processing

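Counts of called antisense genes are given in the order cKO at 0 h, control 3 h, control 6 h, cKO 3 h, cKO 6 h, decay difference, KO1, KO2, with main values of 42, 130, 143, 153, 141, 13, 279 and 320. In the main fit 29.4%, 56.5%, 64.8%, 59.4%, 60.9%, 19.1%, 46.1% and 50.8% of all genes were called, in that order. Where no such share is given for another setting, its counts do not compare antisense genes with all genes. With 50 reads in 2 libraries as the filter the antisense counts were 24, 43, 45, 46, 50, 7, 173 and 195, over fewer genes tested. Among those with a mean count of 30 or more (67 tested in the Ythdc1 fit and 523 in the Mettl3 fit) they were 21, 37, 39, 45, 45, 8, 176 and 207. Among genes with no exon base under an other-strand exon (81 and 443 tested) they were 6, 33, 35, 38, 35, 3, 118 and 139. Among those with no exon base inside an other-strand gene, a set chosen after seeing the data, they were 0 (of 27 tested by edgeR, with 5 at an unadjusted p below 0.05, and 0 by DESeq2, with 2), 11, 12, 11, 9, 1, 12 and 17. The DESeq2 Wald test gave 19 for cKO at 0 h, 6 for the decay difference, 147 for KO1 and 190 for KO2. Spike-in scaling gave 224 for cKO 6 h (64.7%, against 71.7% of all genes), and 1 fit of 18 libraries 181 for KO1. Where an alternative did not shrink the set tested, the cause was not tested. With each library left out in turn the ranges were 24 to 26, 93 to 115, 108 to 143, 115 to 122, 75 to 135, 7 to 18, 200 to 226 and 224 to 250. With the replicate number as a block they were 41, 130, 143, 144, 138, 12, 268 and 308. Same-numbered libraries deviated together with correlations of -0.013 to 0.186 in the Ythdc1 groups and -0.042 to 0.0044 in the Mettl3 groups, so the numbers were not taken as pairs. Without both cKO 3 h libraries, left out after seeing the data, cKO at 0 h gave 37, cKO 6 h 130 and the decay difference 10.

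The share of pairs with the same sign, over pairs whose gene bodies but not exons overlap, was 38.46% in control 3 h, 38.46% in control 6 h, 40.38% in cKO 3 h and 74.70% in KO2. Over head to head pairs it was 66.67% in control 3 h, control 6 h, cKO 3 h, cKO 6 h and the decay difference, and 45.83% in KO1 and KO2. Of 45 named results, 32 kept direction and call in every alternative. The log2 change of 1500015A07Rik in control 6 h turned to -0.10 under spike-in scaling, and 44 further values lost their call. Few reads limit these genes: their median mean count in the Ythdc1 fit was 12.5.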
